A study of Oryza sativa with 2 samples.

Results

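Loci of the plant defence response, 9 in all, were followed in seedlings of the rice cultivar 93-11: the regulator NPR1, the pathogenesis-related genes PR1a and PR1b, the probenazole-induced gene PBZ1 with 2 neighbouring PR10 loci, and 3 chitinase loci. They were taken by ID from the 37896 rows of the expression tables, on 5 chromosomes. The rule used IDs and not values, but earlier results of these data were known when the loci were chosen. The samples were 2 libraries of poly(A) RNA from whole wild-type 93-11 plants, an indica rice, at 3 weeks of age. They were grown in Yoshida nutrient solution with 10 h of light and 14 h of darkness a day, at a light intensity of 800 µmol per m2 per s. Neither library carried a treatment, pathogen or mutation, so the values are levels in unchallenged seedlings as far as the labels say, and no contrast between conditions exists. The labels number the libraries replicate 1 and replicate 2 without saying whether they came from separate plants, so the spread between them may be technical.

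In plants, salicylic acid signalling acts in part through NPR1, a receptor and transcriptional co-activator. NPR1 works with TGA transcription factors and raises the expression of pathogenesis-related genes. Whether the other loci followed here depend on it was not tested. Pathogenesis-related proteins include the secreted PR1 proteins, the small cytoplasmic PR10 proteins and the chitinases, which cut the chitin of fungal cell walls. PR10 proteins share the fold of the birch pollen allergen Bet v 1. In rice, PR1a, PR1b and PBZ1 are used as marker genes of induced defence, and PBZ1 takes its name from probenazole, a compound that protects rice against blast disease.

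Transcripts of most of these defence genes were present in the seedlings. At 1 FPKM or more (fragments scaled to transcript length and to all mapped fragments), 8 of the 9 were detected in both libraries, against 53.1% of all listed loci. All 9 stood above 0 in both libraries. The median of their mean levels was 22.8 FPKM, beside 2.05 FPKM over all listed loci and 10.4 FPKM over the loci detected in both libraries. Of the 9, 6 lay above the last of these values, a median that splits the loci detected in both libraries evenly. The same 6 averaged 10 FPKM or more, as did 10366 of the 37896 listed loci. Their positions among all loci ran from the 58.8 percentile (LOC_Os06g51060, a chitinase) to the 98.9 percentile (PR1a). Loci listed at 0 in both libraries raise these percentiles. With such loci left out, LOC_Os06g51060 stood at the 44.2 percentile, LOC_Os05g33140 at 48.9 and PR1b at 52.4. NPR1 then stood at the 67.2 percentile and PR1a at 98.4. FPKM is scaled by transcript length, so levels of different loci can be set side by side in that respect. Differences between loci in how well fragments map were not examined. In sum, the 9 loci held 0.0539% of all FPKM in replicate 1 and 0.0521% in replicate 2.

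**Figure D1:**
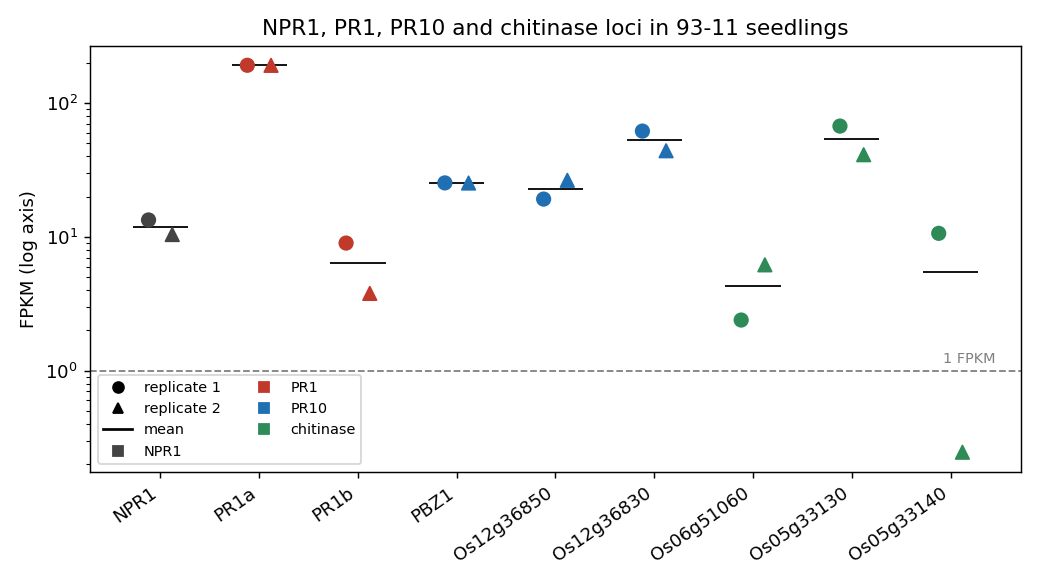
FPKM on a log axis for each locus in replicate 1 (circles) and replicate 2 (triangles), with the mean of both as a bar and the detection level of 1 FPKM as a dashed line. PR1a stands highest at 190.9 FPKM on average, and LOC_Os05g33140 is the 1 locus with a value under the dashed line, 0.246 FPKM in replicate 2.

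The regulator, NPR1 (LOC_Os01g09800, chromosome 1), was expressed at a moderate level. It stood at 13.4 and 10.4 FPKM in replicates 1 and 2, a mean of 11.9 ± 2.097 FPKM (SD, n = 2). This placed it at the 75.8 percentile of all loci, with 9181 loci at its mean level or higher, itself included. The libraries differed 1.29-fold as deposited and 1.14-fold on FPKM + 1 after both were scaled to the same total. Loci in the same level class (the seventh of 10 equal classes of the loci above 0) differed by a median of 1.16-fold, so NPR1 repeated about as closely as a typical locus of its level. Its level was shared by many loci: 298 others lay within 10% of it in both libraries on FPKM + 1. The nearest, LOC_Os09g28100, stood at 13.3 and 10.3 FPKM.

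The PR1 genes, both encoding small secreted proteins, stood far apart. PR1a (LOC_Os07g03710, chromosome 7) was the highest of the 9 loci, with 191.0 FPKM in the library of replicate 1 and 190.8 FPKM in that of replicate 2. Only 435 loci, PR1a included, reached its mean level of 190.9 ± 0.163 FPKM (SD, n = 2, on FPKM as deposited). After scaling to the same total, PR1a differed 1.11-fold between the libraries on FPKM + 1, so this small SD depends on the scaling. PR1b (LOC_Os01g28450, chromosome 1) was at 8.98 FPKM (replicate 1) and 3.78 FPKM (replicate 2), a mean of 6.38 ± 3.68 FPKM. PR1a therefore stood 21.3-fold above PR1b in replicate 1 and 50.5-fold above it in replicate 2. Their ranges did not overlap, and PR1a made up 95.5% of the sum of these 2 loci in replicate 1 and 98.1% in replicate 2. Other genes of the PR1 family were not identified here. PR1b also lay below NPR1 in both libraries, at 0.672 of its level in replicate 1 and 0.363 in replicate 2.

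**Figure D2:**
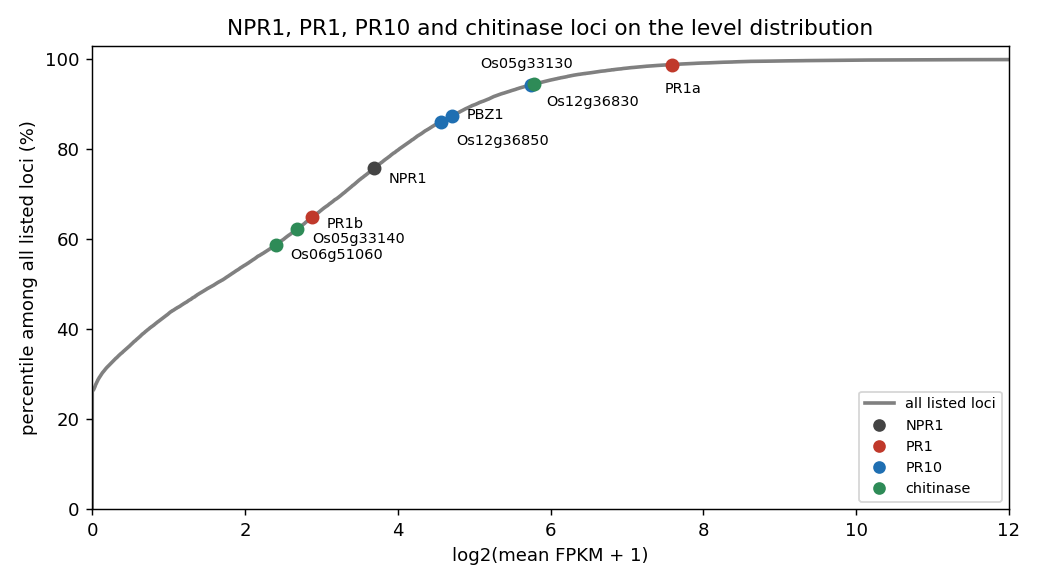
Percentile among all listed loci against log2(mean FPKM + 1), with the distribution of all loci as a grey line and the 9 defence loci as points. PR1a lies at the 98.9 percentile, the chitinase LOC_Os05g33130 and the PR10 locus LOC_Os12g36830 at the 94.5 and 94.4 percentiles, and the lowest 3 points (PR1b, LOC_Os05g33140 and LOC_Os06g51060) between the 58.8 and 64.9 percentiles.

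The PR10 genes, which encode the small cytoplasmic proteins, lay within a 3.22-fold range in replicate 1 and a 1.74-fold range in replicate 2. PBZ1 (LOC_Os12g36880, chromosome 12) was measured at 25.3 and 25.2 FPKM in replicates 1 and 2. The PR10 locus LOC_Os12g36850 was at 19.1 FPKM (replicate 1) and 26.4 FPKM (replicate 2). The PR10 locus LOC_Os12g36830 was the highest of the 3 in both libraries, at 61.6 and 43.9 FPKM in replicates 1 and 2. It stood 2.44-fold above PBZ1 in replicate 1 and 1.74-fold above it in replicate 2, without overlap of their values. PBZ1 and LOC_Os12g36850 changed places between the libraries, and their difference was within the spread. The 3 loci summed to 100.8 ± 7.39 FPKM (SD, n = 2). This was 27.0% ± 0.655 of the summed level of the 9 loci, a share that changed little between the libraries, with 26.5% in replicate 1 and 27.5% in replicate 2. The other shares of that total were less even. From replicate 1 to replicate 2, PR1 went from 50.1% to 55.9%, the chitinases from 20.1% to 13.6% and NPR1 from 3.34% to 2.99%. Inside the PR10 sum the shares moved more than the PR10 share itself: LOC_Os12g36830 made up 58.1% of the sum in replicate 1 and 46.0% in replicate 2.

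The PR10 loci lie in a short run of locus numbers on chromosome 12, with 2 other listed loci between them. One of these, LOC_Os12g36840, stood above all 3 PR10 loci, at 135.4 and 57.3 FPKM in replicates 1 and 2; no gene name is paired with it here. Counting also the 5 listed loci on either side, 12 loci surrounded the PR10 loci. Of these, 10 were detected in both libraries and 2 were listed at 0 in both. Their median level was 8.53 FPKM, and LOC_Os12g36840 was the 1 locus among them above the lowest PR10 locus by mean. Fragments from near-identical copies can be split between loci by the estimation. Neither fragment assignments nor sequence likeness were examined, so the PR10 values, singly and in sum, are uncertain to that extent. They were not examined for the adjacent chitinase loci on chromosome 5 either.

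**Figure D3:**
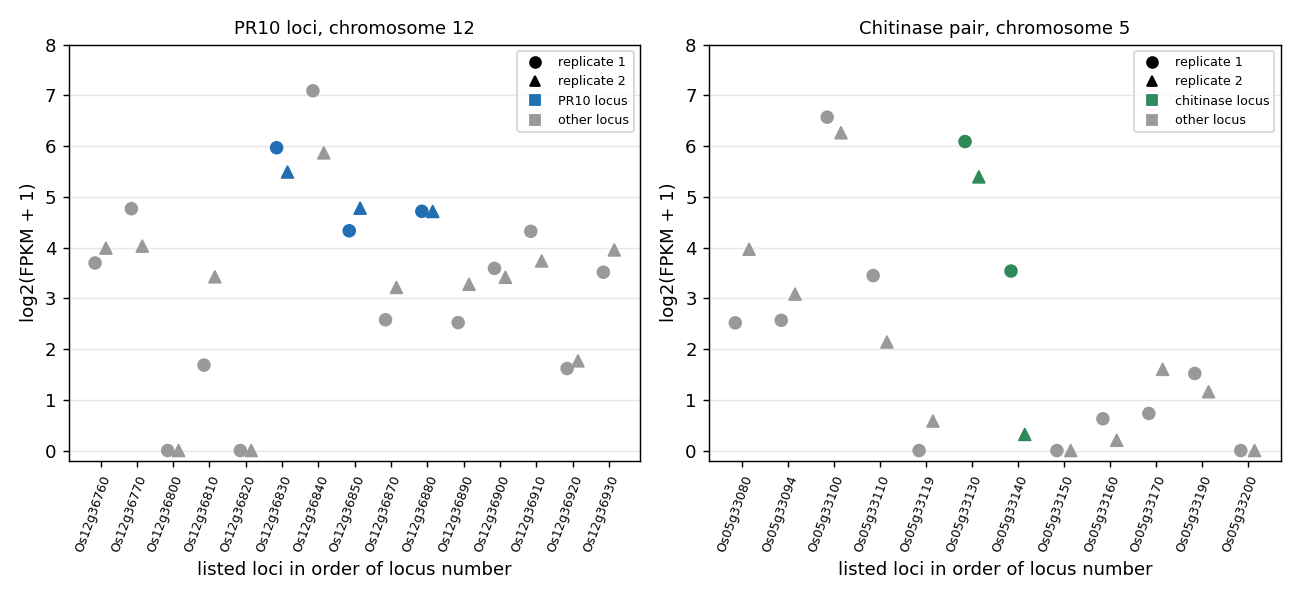
Levels as log2(FPKM + 1) in replicate 1 (circles) and replicate 2 (triangles) of the PR10 loci on chromosome 12 (left, blue) and the chitinase pair on chromosome 5 (right, green), with the listed loci around them in grey, in order of locus number. LOC_Os12g36840 stands above the PR10 loci, and LOC_Os05g33140 stands high in replicate 1 and near 0 in replicate 2.

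Among the chitinases, 1 locus carried most of the signal. LOC_Os05g33130 on chromosome 5 stood at 67.1 FPKM (replicate 1) and 41.0 FPKM (replicate 2), a mean of 54.1 ± 18.5 FPKM (SD, n = 2). It made up 83.8% of the chitinase sum in replicate 1 and 86.5% in replicate 2. LOC_Os06g51060 on chromosome 6 was at 2.39 and 6.17 FPKM in replicates 1 and 2. It was the lowest locus of the 9 in replicate 1 and the seventh in replicate 2. The level of LOC_Os05g33130 was 28.1-fold that of LOC_Os06g51060 in replicate 1 and 6.64-fold in replicate 2.

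The third chitinase, LOC_Os05g33140, is the next listed locus after LOC_Os05g33130 and did not repeat between the libraries. Its level was 10.6 FPKM (replicate 1) and 0.246 FPKM (replicate 2), which placed it at the 73.9 percentile of replicate 1 and the 34.1 percentile of replicate 2. Only 6 of all listed loci were at 10 FPKM or more in replicate 1 and under 1 FPKM in replicate 2, and LOC_Os05g33140 was 1 of them. This pattern was singled out after its values were seen. The reverse pattern was found at 99 of the 37896 listed loci and at none of the 9, which is near that background. LOC_Os05g33130 stood 6.32-fold above LOC_Os05g33140 in replicate 1 and 166.7-fold in replicate 2. Without LOC_Os05g33140 the chitinase sum came to 69.5 and 47.2 FPKM in replicates 1 and 2, against 80.1 and 47.4 FPKM with it.

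Of the 10 listed loci around the chitinase pair, 5 were detected in both libraries and 2 were listed at 0 in both. Their median level was 1.45 FPKM. The highest was LOC_Os05g33100, at 94.0 and 75.8 FPKM in replicates 1 and 2. In RefSeq's gene table for japonica rice (assembly ASM3414082v1), 12 entries carry a chitinase name of the Cht series, on 7 chromosomes. Of these, 3 are consecutive on chromosome 5 and 2 are consecutive on chromosome 6. That table does not pair its entries with the 3 loci, so it does not show what lies beside them.

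By mean level the order was PR1a, LOC_Os05g33130, LOC_Os12g36830, PBZ1, LOC_Os12g36850, NPR1, PR1b, LOC_Os05g33140 and LOC_Os06g51060. Of the 8 steps in this order, 4 were larger than the spread of the libraries, in that the values of the neighbours did not overlap: PR1a over LOC_Os05g33130, LOC_Os12g36830 over PBZ1, LOC_Os12g36850 over NPR1, and NPR1 over PR1b. The other 4 overlapped, and in each the order differed between the libraries. LOC_Os05g33130 and LOC_Os12g36830, with mean levels of 54.1 and 52.7 FPKM, formed 1 such pair. The lowest 3 loci, PR1b, LOC_Os05g33140 and LOC_Os06g51060, could not be ordered, since each step among them overlapped. NPR1 stood above each of these 3 within either library, although its value in replicate 2, 10.4 FPKM, was just under that of LOC_Os05g33140 in replicate 1, 10.6 FPKM.

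Of the 6 loci that averaged at least 10 FPKM, none differed by more than 2-fold between the libraries on FPKM + 1 after scaling to the same total, against 6.52% of the 10366 loci at that level. With 6 loci, a count of 0 is near that background. Their median difference was 1.20-fold, beside 1.17-fold over all loci at that level. The largest of the 6 differences was that of LOC_Os12g36850, 1.504-fold, which was more than 83.8% of the loci at that level showed. LOC_Os05g33140 fell outside this level limit because of its low value in replicate 2. LOC_Os06g51060 fell outside it at a mean of 4.28 FPKM. The limit itself therefore leaves out both loci of the 9 that differed by more than 2-fold. PR1a and PBZ1 had nearly equal values in both libraries, 1.001-fold and 1.002-fold apart as deposited. Scaling to the same total put both slightly higher in replicate 2, by -0.15 and -0.14 (log2 of replicate 1 over replicate 2), so their direction depends on the scaling.

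With a mean of 1 FPKM or more as the limit, which all 9 loci met, 2 differed by more than 2-fold, against 8.97% of 21411 loci. LOC_Os05g33140 was the 1 locus past 2-fold towards replicate 1, as were 1.68% of all loci tested. Its log2 ratio was 3.14, and 7 of the 21411 loci had a higher ratio. The added 1 compresses this difference, which was 43.1-fold on FPKM as deposited and had a log2 ratio of 4.82 with 0.1 added. LOC_Os06g51060 was the 1 locus past 2-fold towards replicate 2, as were 7.29% of all loci tested. Its log2 ratio was -1.20, and 1182 loci had a lower one. PR1b missed the limit, with a log2 ratio of 0.94, but passed it without scaling, at 1.06. Since a single library stands on each side, no test was made.

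**Figure D4:**
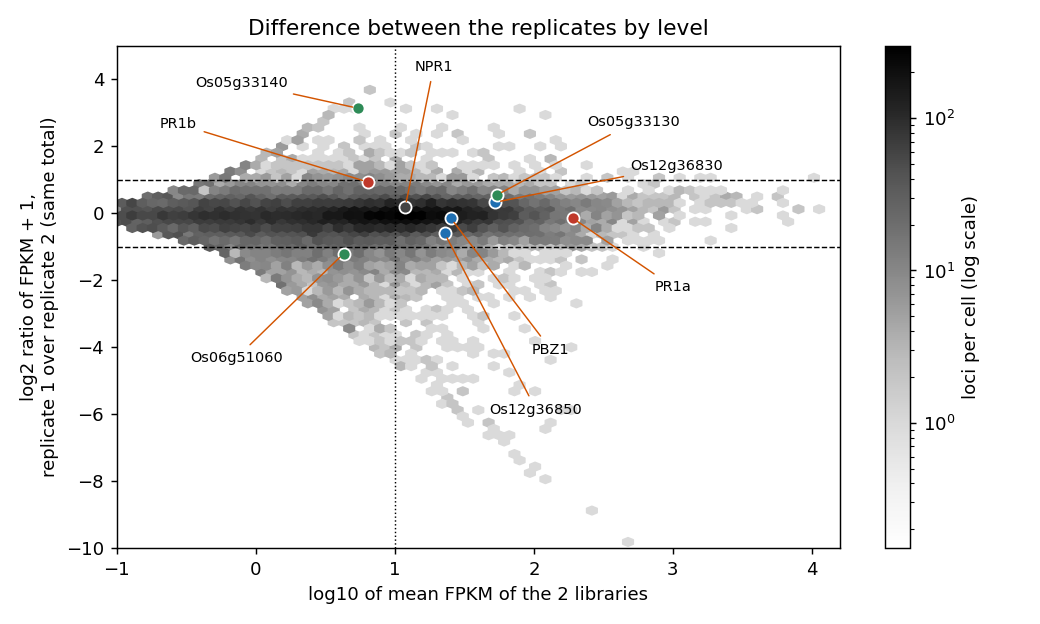
Log2 ratio of FPKM + 1, replicate 1 over replicate 2 after scaling to the same total, against log10 of the mean FPKM, for all loci averaging at least 0.1 FPKM (grey cells, darker for more loci) and the 9 defence loci (NPR1 dark grey, PR1 red, PR10 blue, chitinases green). Dashed lines mark 2-fold and the dotted line a mean of 10 FPKM; LOC_Os05g33140 at 3.14 and LOC_Os06g51060 at -1.20 lie outside the dashed lines, both left of the dotted line.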

How the data were processed

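Poly(A) RNA of 2 seedling libraries was sequenced on an Illumina HiSeq X-ten after NEBNext library preparation, per the labels. The authors deposited 1 FPKM table per library, per the file headers. Per the submitters' processing notes the tools were TopHat2 and Cufflinks, with no version. The build, annotation and filters used are not given in the sources at hand, and what divergence between 93-11 and a japonica genome would do to single loci was not tested. FPKM sums were 741624 (replicate 1) and 668305 (replicate 2). Absolute depth is unknown, so no counting interval is given. Steps among 1169 low values gave a relative depth of 1.13 (replicate 1 over replicate 2), where only similar depths were searched. This estimate is weak: 18.0% of the low values lay near a step at that position, against 8.81% at the median position.

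The loci, their gene names and the settings were chosen with earlier results of these data known. The names come from the rule that chose the loci; the RefSeq table, with 39387 genes, matched 0 of the 9 IDs, so no sequence is shown, no other defence gene is named and tissue markers were not checked. All 9 loci are named; of other loci, those printed are the highest beside the PR10 loci and beside the chitinase pair, and the nearest in level to NPR1 (that of PBZ1 was LOC_Os03g38980, at 25.2 and 25.1 FPKM). Locus numbers give an order, not a distance.

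Levels are means ± SD over the 2 libraries, on FPKM as deposited. Ratios used log2(FPKM + 1) after scaling to the same total, which shifts the log2 ratio by -0.15; the added 1 understates the change of low loci. The calculation was tested on simulated data, with 4-fold changes placed only at loci of higher level. That test does not cover NPR1, or loci as low as PR1b, LOC_Os05g33140 and LOC_Os06g51060. Its simulated spread between libraries was also narrower than the observed one. Alternatives covered the detection limit, scaling, pseudocount, level limit, fold limit, percentiles without loci at 0 in both libraries, and each library alone. Python 3.11.15, numpy 2.4.6, pandas 2.3.3 and matplotlib 3.10.9 were used.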

Additional observations from a re-analysis of the deposited data

How the results depend on the processing

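No paired analysis was possible because both samples belong to a single group. The number of the 9 loci detected in both libraries depended on the limit. It was 9 at 0.1 FPKM, 8 at 0.5 FPKM, and 6 at 5 and at 10 FPKM. At 1 FPKM it was 8 under both rescalings. In replicate 1 alone 9 loci reached 1 FPKM, and in replicate 2 alone 8 did. The share of all listed loci was counted only at 1 FPKM in both libraries, where it was 53.1%. Loci more than 2-fold apart among those with a mean of 10 FPKM or more numbered 0 under each scaling and pseudocount, at 50 FPKM and at 4-fold. They numbered 2 with a mean of 1 FPKM or more, 2 with no filter on the mean, and 1 at 1.5-fold. All of these settings widen what can be counted. The locus past 1.5-fold was LOC_Os12g36850 (log2 ratio -0.59). Its difference exceeded that of 83.8% of the loci averaging at least 10 FPKM, so 1 such locus among 6 was near the background. At the 1 FPKM limit, 8.97% of all loci tested were past 2-fold. Without a filter the share of all loci was not counted. PR1b passed 2-fold under the other scalings and pseudocounts, with log2 ratios from 1.02 to 1.097. The log2 ratio of LOC_Os05g33140 was 4.82 with a pseudocount of 0.1 and 5.23 with 0.01, and that of LOC_Os06g51060 lay between -1.52 and -1.08. The PR10 share was 26.5% to 27.5% in 1 library alone. Of the 9 places in the order, 7 were the same in replicate 1 alone and 2 in replicate 2 alone. The fragments behind the low value of LOC_Os05g33140 in replicate 2 are unknown.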
